A study of Homo sapiens with 2 samples.

Results

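The arms of 2 neighboring hairpins, hsa-miR-483-5p, hsa-miR-483-3p, hsa-miR-675-5p and hsa-miR-675-3p, are 4 of the 793 mature miRNA names counted in exosomes, small vesicles released by cells, of 2 human liver cancer lines. They were found by name, and none is repeated in the table. The prefix hsa is left out from here on. MIR483 lies in an intron of IGF2, the gene of insulin-like growth factor 2, and MIR675 lies in an exon of the neighboring non-coding RNA gene H19. MHCC97H is a hepatocellular carcinoma line kept for its high metastatic potential, and HepG2, a widely used liver tumor line, carries the same tumor label. The labels name no treatment. Each line was grown in serum cleared of exosomes, its vesicles were pelleted from the medium by ultracentrifugation, and 1 small RNA library was sequenced for each, so neither group has replicates and a value stands for 1 preparation of vesicles.

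A miRNA hairpin is cut from a longer transcript and then cut again into a duplex, whose arms are called 5p and 3p. Usually one arm is loaded onto an Argonaute protein, where its seed, the stretch near its 5′ end, pairs with target mRNAs. IGF2 and H19 share enhancers at an imprinted locus, where IGF2 is expressed from the paternal chromosome and H19 from the maternal one. Both are abundant in fetal liver, decline after birth, and are expressed again in some liver cancers. miR-483-3p is known to repress the pro-apoptotic gene BBC3 (PUMA), and miR-675-5p is known to repress the retinoblastoma gene RB1. In mouse placenta, miR-675 represses Igf1r, the receptor through which insulin-like growth factors act.

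The miR-675 sequences are shown because its arms were read about equally, and because the seeds show which other listed miRNAs read the same target letters. Capitals mark the seed, bases 2 to 8 counted from the 5′ end. The sequences are from RefSeq (GRCh38.p14), which matched 704 of the 793 names, 2 of the 4 described here among them. miR-675-5p is encoded at chr11:1996800-1996822 and miR-675-3p at chr11:1996768-1996787, both on the minus strand. miR-4466, on chromosome 6, is the single other listed miRNA with a matched sequence that has the seed of miR-675-5p.
miR-675-5p: uGGUGCGGagagggcccacagug
miR-4466: gGGUGCGGgccggcgggg
miR-675-3p: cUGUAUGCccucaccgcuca
No other matched miRNA of the table has the seed of miR-675-3p. miR-675-5p is 23 nt long with 69.6% G and C, more than 92.0% of the matched miRNAs. miR-675-3p is 20 nt long with 60.0% G and C, more than 78.8% of them. miR-4466 had 0 reads in MHCC97H and 1 read in HepG2, which was the only HepG2 read with the seed of miR-675-5p among the matched miRNAs.

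In the hairpin of miR-675 (chr11:1996759-1996831, minus strand, GRCh38.p14), capitals mark the 5p arm and then the 3p arm.
MIR675: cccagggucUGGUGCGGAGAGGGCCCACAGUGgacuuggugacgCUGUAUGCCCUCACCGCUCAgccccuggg
The predicted minimum free energy fold of these 73 bases has 27 base pairs, of which 17 join the 5p arm to the 3p arm, at -47.8 kcal/mol. The arms are separated by 12 bases. MIR483 lies at chr11:2134134-2134209 on the same strand, 137 kb from MIR675 (GRCh38), and GENCODE places no other miRNA hairpin between them. IGF2 and the read-through gene INS-IGF2 both span MIR483 with an intron there.

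Depth differed between the libraries, with 304457 miRNA reads for MHCC97H and 22831 for HepG2. Levels are given as CPM, the miRNA's reads scaled to a common library total, and 1 read was worth 3.28 CPM in MHCC97H and 43.8 CPM in HepG2. Where no read was found, the level may be as high as that of 3 reads, or 9.85 CPM for MHCC97H and 131 CPM for HepG2. Liver-enriched miRNAs were present in both libraries: 5 hairpins fixed as liver markers summed to 32031 CPM in MHCC97H and 158600 CPM in HepG2. The sums were led by miR-148a-3p, at 26976 CPM in MHCC97H and 142438 CPM in HepG2. Next came miR-192-5p (2404 CPM in MHCC97H and 10775 CPM in HepG2) and miR-194-5p (302 CPM in MHCC97H and 3548 CPM in HepG2). These 3 were higher in HepG2, whereas miR-148a-5p was higher in MHCC97H (1327 CPM, against 438 CPM in HepG2). miR-122-5p, the main miRNA of hepatocytes, stood at 979 CPM in MHCC97H and 1051 CPM in HepG2. Of the 10 listed liver arms, 1 had 0 reads in MHCC97H (miR-885-5p) and 4 had 0 reads in HepG2. Other cell types' markers were read as well. Blood cell miRNAs (10 arms, led by miR-451a, miR-486-5p and miR-142-5p) summed to 14603 CPM in MHCC97H and 30529 CPM in HepG2, with 0 of the arms at 0 reads in MHCC97H and 1 in HepG2. Mesenchymal miRNAs (10 arms, led by miR-143-3p and the pair miR-199a-3p and miR-199b-3p, which carry equal counts) summed to 24128 CPM in MHCC97H and 29959 CPM in HepG2. Each name of the pair adds 2477 CPM in MHCC97H and 3460 CPM in HepG2, so reads shared by both names enter these sums under each. The 2 arms of the endothelial miR-126 summed to 6507 CPM in MHCC97H and 7227 CPM in HepG2. The part of these levels in the results below was not tested.

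The arms of the IGF2 hairpin were read in HepG2 alone, and those of the H19 hairpin in MHCC97H alone. miR-483-5p, the arm with more reads, had 0 reads in MHCC97H and 124 reads in HepG2. miR-483-3p, the BBC3 repressor, had 0 reads in MHCC97H and 5 reads in HepG2. The IGF2 intron thus gave no read in the library that was 13.3 times deeper.

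The H19 arms had the opposite pattern. For miR-675-5p, the RB1 repressor, MHCC97H gave 120 reads and HepG2 gave 0. For its partner miR-675-3p, MHCC97H gave 116 reads and HepG2 again 0. No arm of either hairpin was read in both libraries. Over the whole table, 332 of the 793 names had reads in both, so reads in a single library were common.

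**Figure D1:**
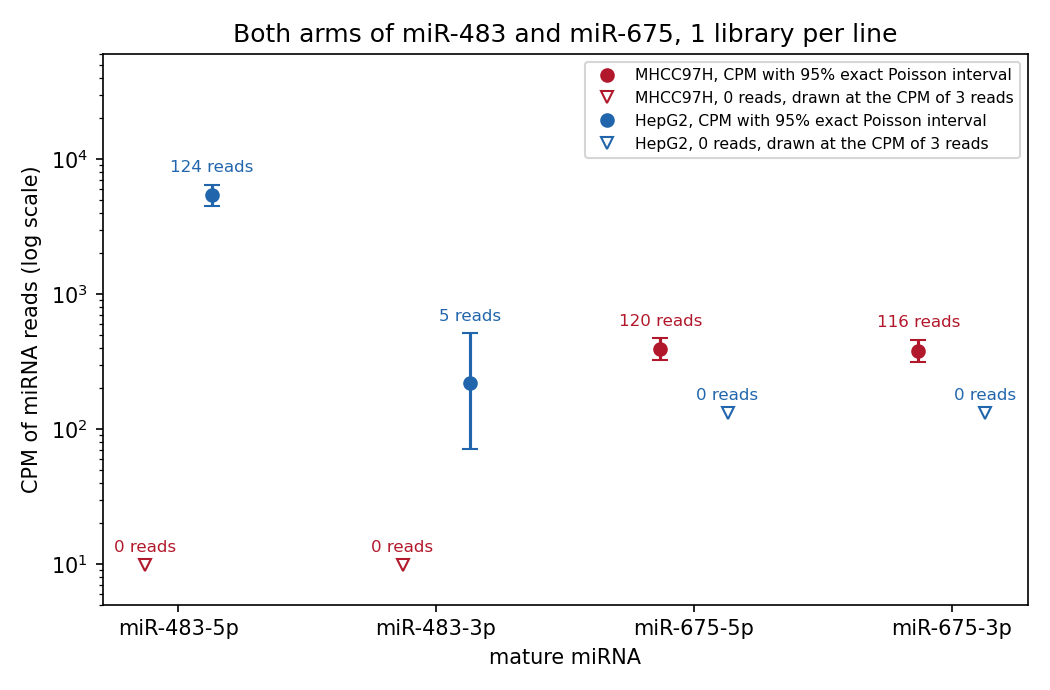
CPM of miRNA reads (log axis) for each arm, with MHCC97H in red left of HepG2 in blue; filled points carry 95% exact Poisson intervals and open triangles mark 0 reads, drawn at the CPM of 3 reads. miR-483-5p and miR-483-3p have filled points in HepG2 alone, at 5431 and 219 CPM, and miR-675-5p and miR-675-3p in MHCC97H alone, at 394 and 381 CPM.

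In relative abundance, miR-483-5p was at 0 CPM in MHCC97H and at 5431 CPM in HepG2 (95% exact Poisson interval 4517 to 6476), where it made up 0.543% of miRNA reads (95% Clopper-Pearson interval 0.452 to 0.647%). It ranked 25 of the 362 miRNAs detected in HepG2. At the same share of reads, MHCC97H would have held 1654 reads of it. The level of miR-483-5p was at least 551-fold higher in HepG2, which sets its HepG2 level over that of 3 MHCC97H reads. The exact 95% interval of the ratio, which also covers the error of the 124 reads, had its lower end at 442-fold. Here and below, an at-least fold allows for the 0 reads alone, and the exact lower end is the more cautious bound. These intervals cover counting error only, since reads without molecular identifiers are not independent molecules.

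miR-483-3p was at 0 CPM in MHCC97H and at 219 CPM in HepG2 (71.1 to 511 CPM). An equal share would have given 66.7 reads in MHCC97H. Its level was at least 22.2-fold higher in HepG2, with an exact lower end of 12.2. This value rests on 5 reads, and its bound is therefore far looser than that of the 5p arm. With the arms summed, the hairpin had 0 reads in MHCC97H and 129 in HepG2, at least 573-fold higher in HepG2 (exact lower end 460).

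miR-675-5p was at 394 CPM in MHCC97H (327 to 471 CPM) and at 0 CPM in HepG2. It ranked 155 of the 763 miRNAs detected in MHCC97H. The same share would have given 9.00 reads in HepG2. Its level was at least 3.00-fold higher in MHCC97H, with an exact lower end of 2.40.

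miR-675-3p was at 381 CPM in MHCC97H (315 to 457 CPM) and at 0 CPM in HepG2, and it ranked 159 in MHCC97H. An equal share would have given 8.70 reads in HepG2. Its level was at least 2.90-fold higher in MHCC97H, with an exact lower end of 2.32. With the arms summed, the hairpin had 236 reads in MHCC97H and 0 in HepG2, where 17.7 would have been an equal share. The sum was at least 5.90-fold higher in MHCC97H (exact lower end 4.76).

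The bounds for miR-675 are small because of the HepG2 depth: 0 reads there were set at 131 CPM, the level that 40.0 reads give in MHCC97H. A HepG2 level below that may leave no read at this depth. The bounds for miR-483 are large because 0 reads in MHCC97H were set at only 9.85 CPM. The sizes of the bounds of miR-483 and miR-675 therefore cannot be set against each other as effects. The files do not tell fewer vesicles with a miRNA from less of it per vesicle, and the effect of the line and that of its single library preparation cannot be told apart.

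Both miR-675 bounds depended on the scaling. With the log2 ratios centred on their median, a shift of -1.12 for every miRNA, the bounds were 1.38-fold for miR-675-5p and 1.34-fold for miR-675-3p in MHCC97H. With totals that left out the most abundant miRNAs they were 1.89-fold and 1.83-fold. The exact lower ends were 1.11 and 1.07 with centring, and 1.51 and 1.46 with those totals. They stayed above 1, though narrowly with centring. The direction of the centring shift depends on the zero counts, since the median over all tested miRNAs was 1.12 with the pseudocount and -0.74 with zeros set to 3 reads. The same 2 scalings raised the bound of miR-483-5p to 1195-fold and 874-fold in HepG2.

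Among all miRNAs, 543 had at least 10 CPM in at least 1 library, and all 4 arms were among them. The arms of miR-483 passed through HepG2 and those of miR-675 through MHCC97H. A single HepG2 read, at 43.8 CPM, passed this filter, whereas 3 MHCC97H reads, at 9.85 CPM, did not. A difference was called at 2-fold or more in log2(CPM + 1), together with a 95% exact interval of the ratio that excluded 1. By this rule 20.4% of the 543 were higher in MHCC97H, as were 2 of the 4 arms. In HepG2, 9.02% were higher, as were the other 2 arms. By size alone the shares were 51.7% and 25.2%. MHCC97H took 67.2% of the calls by size when scaled by library totals, and 52.7% of them when the ratios were centred. By both criteria the balance depended on scaling: it was 111 for MHCC97H and 49 for HepG2 with library totals, 54 for MHCC97H and 97 for HepG2 with centring, and 72 for MHCC97H and 73 for HepG2 with totals that left out the most abundant miRNAs.

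**Figure D2:**
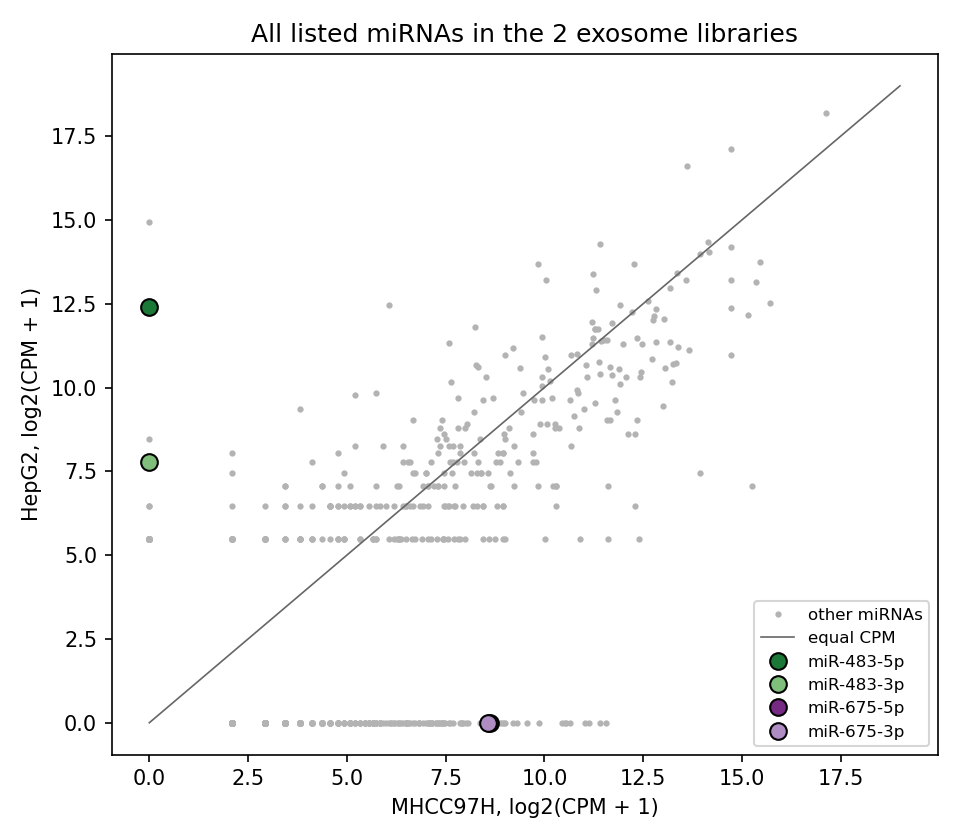
Each point is 1 of the 793 listed miRNAs, with log2(CPM + 1) in MHCC97H on the horizontal axis and in HepG2 on the vertical axis; the line marks equal CPM. The arms of miR-483 lie on the vertical axis at 0 for MHCC97H, and the arms of miR-675, whose points overlap, lie at 0 for HepG2.

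A count of 0 in MHCC97H beside HepG2 reads, as for miR-483, was uncommon in the table. Of the 793 miRNAs, 30 had reads in HepG2 and 0 in MHCC97H, and 24 of these had a single HepG2 read. Both arms of miR-483 were among the 4 with 5 or more reads. The others were miR-6750-5p with 0 reads in MHCC97H and 717 in HepG2, and the liver-enriched miR-885-5p with 0 in MHCC97H and 8 in HepG2. Of the 120 miRNAs with 10 or more HepG2 reads, 2 had 0 reads in MHCC97H, namely miR-6750-5p and miR-483-5p. The same 2 were the only ones at 0 in MHCC97H among the 30 with 100 or more HepG2 reads.

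**Figure D3:**
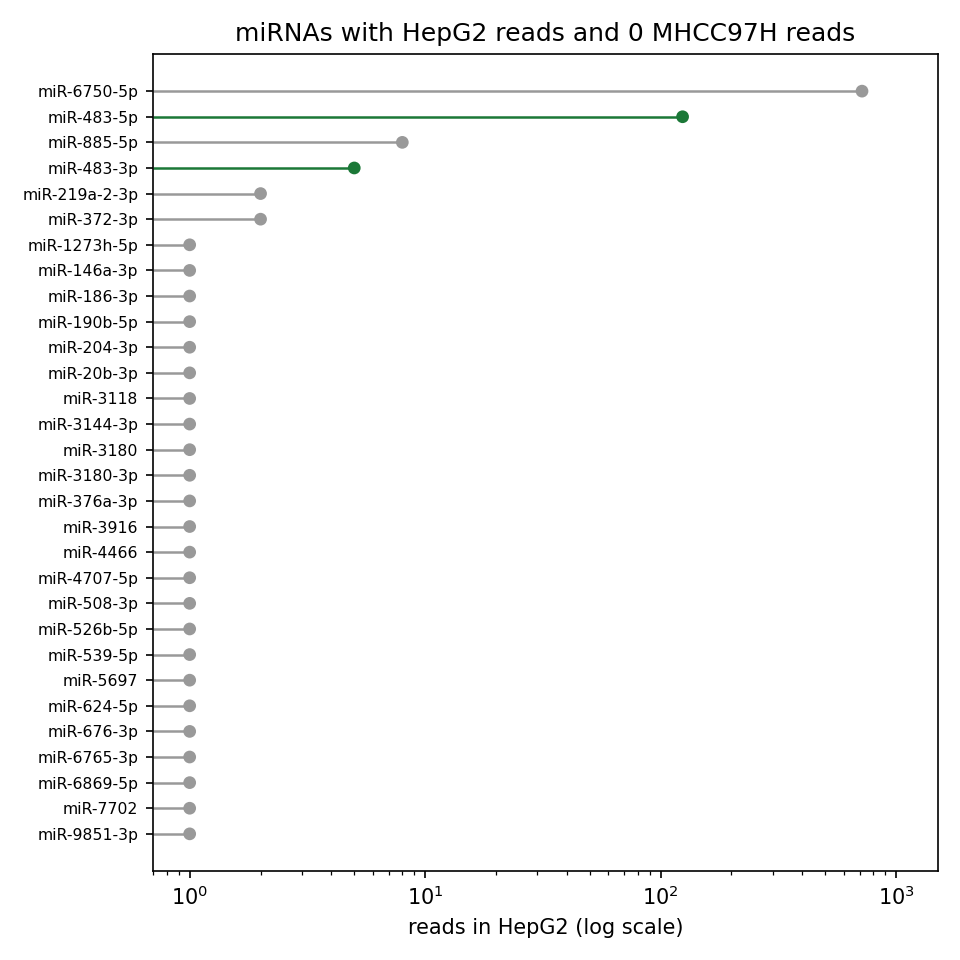
Reads in HepG2 (log axis) of the 30 miRNAs with 0 reads in MHCC97H, with the arms of miR-483 in green. miR-483-5p is in place 2 with 124 reads, after miR-6750-5p with 717, and miR-483-3p is in place 4 with 5 reads, while 24 miRNAs have 1 read.

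A count of 0 in HepG2 beside MHCC97H reads, as for miR-675, was common. Of the 793 miRNAs, 431 had reads in MHCC97H and 0 in HepG2. By MHCC97H reads, miR-675-5p was in place 18 of these and miR-675-3p in place 20. The highest, with 919 reads, was miR-16-2-3p. The table also holds 28 other miRNAs with 100 to 150 reads in MHCC97H, the range around miR-675. Of these, 8 had 0 reads in HepG2 (28.6%) and 20 had at least 1. Their median was 2 reads in HepG2 and their highest 29. The 0 reads of each miR-675 arm thus lay at the low end of a group that mostly had few HepG2 reads.

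**Figure D4:**
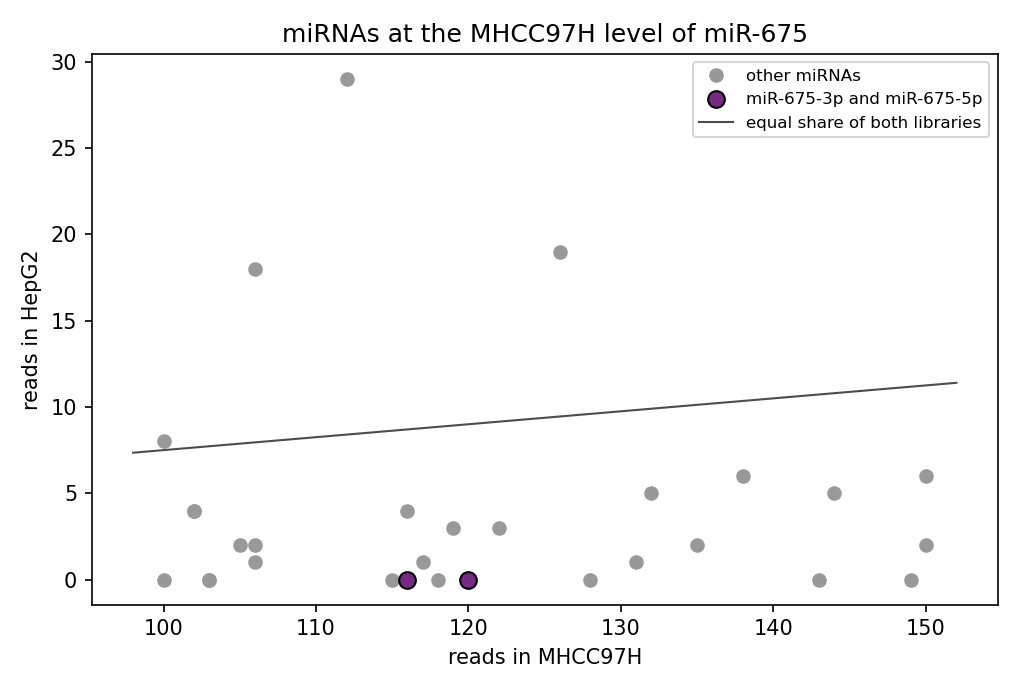
Reads in HepG2 against reads in MHCC97H for the miRNAs with 100 to 150 MHCC97H reads; the line marks an equal share of both libraries. The arms of miR-675, in purple, lie at 0 HepG2 reads together with 8 of the 28 other miRNAs, and most of the others lie below the line.

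The pattern most like each arm was measured as the distance in log2(CPM + 1) over the 2 libraries. miR-6750-5p was nearest to miR-483-5p, at a distance of 2.53, followed by miR-885-5p at 3.95 and miR-483-3p at 4.63. For miR-483-3p the nearest was miR-885-5p at 0.68, then miR-219a-2-3p and miR-372-3p at 1.31, each with 0 reads in MHCC97H and 2 in HepG2. For miR-675-5p the nearest were miR-196a-5p (118 reads in MHCC97H and 0 in HepG2) at 0.024, its own partner arm at 0.049 and miR-26a-2-3p (115 reads in MHCC97H and 0 in HepG2) at 0.061. The same miRNAs were nearest to miR-675-3p, with miR-26a-2-3p first. With 2 libraries, such distances say only that the levels are close.

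The hairpins differed in how their reads were divided between the arms, a measure that needs no scaling between libraries. In MHCC97H, miR-675 had 120 reads on the 5p arm and 116 on the 3p arm, a 5p share of 50.8% (95% Clopper-Pearson interval 44.3 to 57.4%). In HepG2, miR-483 had 124 reads on the 5p arm and 5 on the 3p arm, a 5p share of 96.1% (91.2 to 98.7%). The intervals do not overlap. They come from different hairpins in different libraries, so the values show the division of reads for each and no change between lines.

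A division as even as that of miR-675 was uncommon in MHCC97H. Of the 158 other hairpins with both arms listed and at least 10 reads there, 12 had a 5p share of 40 to 60%. The more abundant arm held a median of 91.7% of a hairpin's reads, against 50.8% for miR-675, and 2 of the 158 were more even. Those 2 had 15 reads on each arm and 6 reads on each arm. Shares on so few reads are looser than that of miR-675. In HepG2, the more abundant arm held a median of 99.2% in the 79 other hairpins with at least 10 reads, beside 96.1% for miR-483. Of these 79, 27 were less one-sided than miR-483. Its lean to the 5p arm was thus within the usual range of the library. Adapter ligation also favors some ends over others, and its part in the arm shares was not tested.

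**Figure D5:**
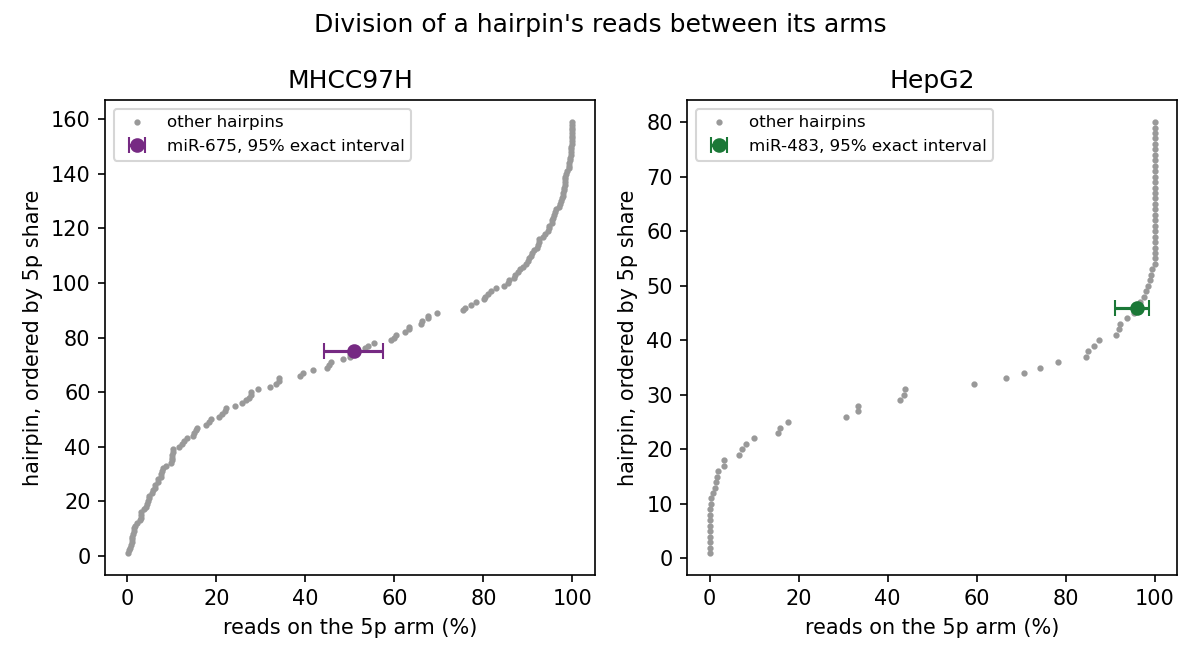
Share of a hairpin's reads on its 5p arm, in percent, with hairpins ordered by that share; the left panel shows MHCC97H and the right panel HepG2, each for hairpins with at least 10 reads. miR-675, in purple with its 95% exact interval, lies at 50.8% in the sparse middle of the MHCC97H panel, and miR-483, in green, at 96.1% near the upper end of the HepG2 panel.

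The next hairpin on the same arm of chromosome 11 had reads in both libraries. Before position 10000000 the table holds arms of 3 hairpins: MIR210, MIR675 and MIR483. miR-210-3p, induced by hypoxia, lies in an intron of MIR210HG at chr11:568089-568198 on the minus strand. It had 169 reads in MHCC97H and 4 in HepG2, or 555 CPM and 175 CPM, a ratio of 3.17 (1.21 to 11.8). miR-210-5p had 3 reads in MHCC97H and 0 in HepG2, under the 10 CPM filter. Going by position, the hairpins had calls for MHCC97H (miR-210-3p), MHCC97H (both miR-675 arms) and HepG2 (both miR-483 arms). The miR-210-3p call depended on the scaling. Its log2 ratio of 1.66 falls under 2-fold with the shift of -1.12 from median centring. It also falls narrowly under 2-fold with the shift of -0.67 from totals that left out the most abundant miRNAs.

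By both criteria, miRNAs of other imprinted loci were called for MHCC97H in few cases. The list holds 57 arms from the MEST gene (miR-335), the GNAS locus (miR-296) and the 14q32 cluster. Of 46 at 10 CPM or more, 1 was called for MHCC97H by both criteria, 6 for HepG2 and 39 for neither. The share called for MHCC97H was 2.17%, beside 20.4% of all 543 miRNAs, the share for HepG2 13.0%, beside 9.02%, and the share for neither 84.8%, beside 70.5%. By size alone, 15 of the 46 were called for MHCC97H, beside 281 of all 543 miRNAs (51.7%). For HepG2, 17 of the 46 were called, beside 137 of the 543 (25.2%). Size calls for HepG2 included arms on 1 HepG2 read, and those for MHCC97H included arms at 0 HepG2 reads. Of the 57 arms, 25 had 0 reads in HepG2, where a low MHCC97H count leaves an interval that includes 1. The median log2 ratio was -0.48, beside 1.12 for all 543 miRNAs. With zero counts set to 3 reads it was -1.37, beside -0.74 for all. The median turned to 0.18 without the filter on low values.

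The one imprinted miRNA called for MHCC97H was miR-296-3p, with 78 reads in MHCC97H and 0 in HepG2, at 256 CPM in MHCC97H. Its call was lost with median centring and with totals that left out the most abundant miRNAs. The most abundant members were miR-379-5p (2388 CPM in MHCC97H and 2847 CPM in HepG2), miR-381-3p (2358 CPM in MHCC97H and 2540 CPM in HepG2) and miR-493-5p (512 CPM in MHCC97H and 2015 CPM in HepG2). miR-493-5p was the only one of these 3 called, for HepG2. The 2 arms of miR-335 from MEST, itself expressed from the paternal chromosome as IGF2 is, had 43 reads (3p) and 6 reads (5p) in MHCC97H and 0 in HepG2, and neither met both criteria.

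Arms of hairpins whose main miRNA is reported to repress genes of the insulin-like growth factor axis were called more often for MHCC97H than for HepG2. Of 36 listed arms (the let-7 family with miR-98, and miR-7, miR-99a, miR-100, miR-122, miR-145, miR-195, miR-375, miR-486 and miR-497 as far as listed), 33 had 10 CPM or more. Of these, 19 were called for MHCC97H, 1 for HepG2 and 13 for neither. MHCC97H was thus called for 57.6% of the list and HepG2 for 3.03%, beside 20.4% for MHCC97H and 9.02% for HepG2 over all miRNAs. This list and that of other imprinted loci were chosen with earlier results of these data known, so their shares are descriptive only. Several listed arms are also among the most abundant in MHCC97H, and an interval excludes 1 more readily at high counts. The median log2 ratio was 3.18, beside 1.12 for all miRNAs, and 1.57 with zero counts set to 3 reads, beside -0.74 for all. Of the 19, 16 were arms of let-7 or miR-98. Of these 16, 9 were 5p arms, which share the let-7 seed and are not independent examples, and the others were 3p arms without that seed.

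Of that list, miR-7-5p, which represses IGF1R and IRS2, had 3272 reads in MHCC97H and 54 in HepG2. miR-99a-5p, known to repress IGF1R and MTOR, had 3914 reads in MHCC97H and 51 in HepG2. miR-145-5p, which represses IGF1R and IRS1, was the one called for HepG2, on 6 reads in MHCC97H and 3 in HepG2. The most abundant members were let-7f-5p (16293 reads in MHCC97H and 134 in HepG2), miR-100-5p (12687 in MHCC97H and 207 in HepG2) and let-7a-5p (11167 in MHCC97H and 104 in HepG2). miR-122-5p, also reported to act on IGF1R, was called in neither direction. IGF2, H19 and the target mRNAs themselves were not measured in these libraries.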

How the data were processed

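Exosomal RNA was extracted with TRIzol and made into small RNA libraries with an NEBNext kit, per the labels' protocols. Per the file headers, the authors deposited read counts for each mature miRNA, unnormalized, in 1 column per library. Trimming and alignment tools (cutadapt, Bowtie) are named in the submitters' processing notes. What settings, genome build and miRBase release were used is not given in the sources used here. Of 915 entries, 78 names are repeated (30 with unequal counts), and each name entered once, with its largest count. CPM was computed from the resulting totals. Ratios are MHCC97H over HepG2, with a pseudocount of 1 CPM on the log2 scale, and with exact Clopper-Pearson intervals (95%) on the split of reads. With 1 library per line there is no test between lines. The calling code was checked on counts simulated with counting error alone, so that check says nothing about differences between preparations. The members and lists were chosen with earlier results of these data known. Named miRNAs were the 4 arms, the 3 nearest to each, miRNAs with the same seed, chromosome 11 neighbors and the 3 most abundant of each list. miR-122-5p, miR-148a-5p, miR-296-3p, miR-335, miR-7-5p, miR-99a-5p, miR-145-5p, miR-885-5p and miR-16-2-3p were added with their values known. Results were recomputed with other scalings (trimmed mean of M-values from edgeR, median centring, totals without the 10 most abundant miRNAs of each library, 16 in all), pseudocounts, filters, folds and handling of repeats. Hairpins were placed with GENCODE release 29 (GRCh38), independently of the counting. Software comprised RNAfold 2.7.2, edgeR 4.0.16 in R 4.3.3, and Python 3.11.15 with scipy 1.17.1, pandas 2.3.3, numpy 2.4.6 and matplotlib 3.10.9.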

Additional observations from a re-analysis of the deposited data

How the results depend on the processing

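With median centring, the bounds in MHCC97H were 1.38-fold for miR-675-5p, 1.34-fold for miR-675-3p and 2.72-fold for their sum; with totals without the most abundant miRNAs they were 1.89, 1.83 and 3.72. The bounds in HepG2 rose with centring to 1195-fold for miR-483-5p, 48.2-fold for miR-483-3p and 1243-fold for their sum, and their counting intervals have no upper end. Calls by both criteria were then 54 for MHCC97H and 97 for HepG2 with centring, and 72 for MHCC97H and 73 for HepG2 with those totals, against 111 and 49. By size alone, a filter of 100 CPM left 154 calls for MHCC97H and 54 for HepG2, and no filter gave 531 for MHCC97H, against 281 and 137. Centring gave 4 HepG2 calls in the insulin-like growth factor list (against 1) and 11 in the list of other imprinted loci (against 6). The MHCC97H call in the imprinted list fell to 0 with centring and with the reduced totals, and its median turned to 0.18 without the filter. These shifts follow from the construction of the alternatives, which move every ratio or change which miRNAs are counted. The HepG2 depth limits what can be said of miR-675 there. No paired analysis was possible because each line has 1 library.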
